A study of Mus musculus with 12 samples.

Results

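The mouse mitochondrial genome encodes 13 proteins, 2 ribosomal RNAs and 22 transfer RNAs, and each of these 37 genes had a row in the deposited count table of 56748 genes. The members were taken by symbol, as every row whose name begins with mt-. They were followed in 12 RNA-seq libraries of mouse brain, described by the series as adult forebrain, in 4 groups of 3. The groups were wildtype mice, mice labelled htr3a Notch KO (a Notch conditional knockout), and each of these genotypes after valproic acid. This drug, used against epilepsy, also inhibits histone deacetylases, and the series gives the exposure as prenatal. The labels name neither the Notch gene that was deleted nor the promoter used to delete it, and dose, day of exposure, strain, exact age and any mock treatment of the unexposed groups are likewise not given. Knockout stands below for htr3a Notch KO, and exposed for prenatal valproic acid.

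Mitochondrial DNA is a small circle present in many copies per cell. Both of its strands are transcribed into long precursors by a dedicated polymerase, and the transfer RNAs that lie between most of the other genes are cut out to release the ribosomal and messenger RNAs. The proteins are core subunits of the respiratory chain and of ATP synthase, on which neurons draw heavily for ion pumping and synaptic transmission, and they assemble with a larger number of subunits made from nuclear genes.

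A first set of sequences shows 3 transfer RNAs that lie side by side between mt-Nd4 and mt-Nd5, because the smallest p-values of any member fell on the first of them. Capitals mark the anticodon, and all sequences here are from GENCODE M21 transcripts on GRCm38, the build before the GRCm39 build named by the submitters. The last line adds mt-Tp, the transfer RNA with the most counts.
mt-Th (histidine): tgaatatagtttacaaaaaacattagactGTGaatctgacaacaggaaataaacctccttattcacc
mt-Ts2 (serine): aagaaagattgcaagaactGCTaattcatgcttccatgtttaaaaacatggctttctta
mt-Tl2 (leucine): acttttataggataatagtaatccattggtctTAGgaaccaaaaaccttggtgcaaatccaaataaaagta
mt-Tp (proline): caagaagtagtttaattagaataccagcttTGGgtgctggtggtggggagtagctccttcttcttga

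A second set shows messenger RNAs that share their sequence with nuclear gene models. Gene models on nuclear chromosome 1 carry near-identical copies of mitochondrial genes, and the windows below give 60 bases of a member and of its copy. Capitals mark a base that differs, and positions are counted from 1 at the first base of the member's gene model. For mt-Nd3 the window holds the change T3C, the sole mismatch in 345 aligned bases. For mt-Co1 it holds A1066T, the sole mismatch in 483 aligned bases, and for mt-Co2 the 681 aligned bases hold none.
mt-Nd3: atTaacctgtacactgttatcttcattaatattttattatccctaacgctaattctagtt
Gm28438: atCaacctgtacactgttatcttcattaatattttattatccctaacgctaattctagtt
mt-Co1: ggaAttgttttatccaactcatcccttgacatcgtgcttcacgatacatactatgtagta
Gm29216: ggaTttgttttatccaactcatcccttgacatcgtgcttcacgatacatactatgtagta
mt-Co2: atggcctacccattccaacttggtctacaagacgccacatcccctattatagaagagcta
Gm28661: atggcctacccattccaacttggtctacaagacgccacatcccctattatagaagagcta

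Library totals ran from 16887885 to 24944681 counts, and 17995 genes, with 32 of the 37 members, passed the filter on low counts. The labels do not say whether libraries came from separate animals, so p-values measure the spread between these libraries. The 5 cerebellum and hindbrain markers summed to 0.327 to 1.76 CPM per library (counts per 1000000 library counts after scaling), with 1 of them at 0 in every library. Xist, the RNA of the inactive X chromosome, had 6 and 12 counts in 2 libraries, exposed wildtype replicate 3 and exposed knockout replicate 3, and 5919 to 10767 in the other 10.

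All 37 members together held 13.80%, 14.38% and 12.49% of counts in wildtype replicates 1 to 3, and 12.20%, 14.83% and 15.19% in knockout. They held 13.44%, 14.00% and 16.40% in exposed wildtype, and 18.62%, 14.13% and 13.53% in exposed knockout. Exposed knockout replicate 1 was the highest library, and the 4 groups overlapped. The group means were 13.6% ± 0.97 in wildtype, 14.1% ± 1.6 in knockout, 14.6% ± 1.6 in exposed wildtype and 15.4% ± 2.8 in exposed knockout (SD, n = 3 each). Without exposed knockout replicate 1 the last mean was 13.8%, and without exposed wildtype replicate 3 the mean of that group was 13.7%. In bulk tissue, fewer cells of a type and less RNA per cell cannot be told apart, and this holds for every level given here.

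The messenger RNAs held most of this share. Protein-coding members took 11% ± 0.92 of counts in wildtype, 11.3% ± 1.3 in knockout, 12% ± 1.3 in exposed wildtype and 12.6% ± 2.2 in exposed knockout (SD, n = 3). The ribosomal RNAs mt-Rnr1 and mt-Rnr2 took 2.57% ± 0.092, 2.70% ± 0.40, 2.60% ± 0.28 and 2.77% ± 0.63 in the same order of groups. These libraries were made after ribosomal RNA depletion, so the ribosomal share is what the depletion left and not the level in the tissue. The transfer RNA rows took 0.0277% ± 0.0013, 0.0296% ± 0.0024, 0.0291% ± 0.0032 and 0.0309% ± 0.0042. Mature transfer RNAs are short and heavily modified, and the libraries were not made for small RNA, so these counts are a small remnant whose source (mature RNA or precursor) was not tested.

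**Figure D1:**
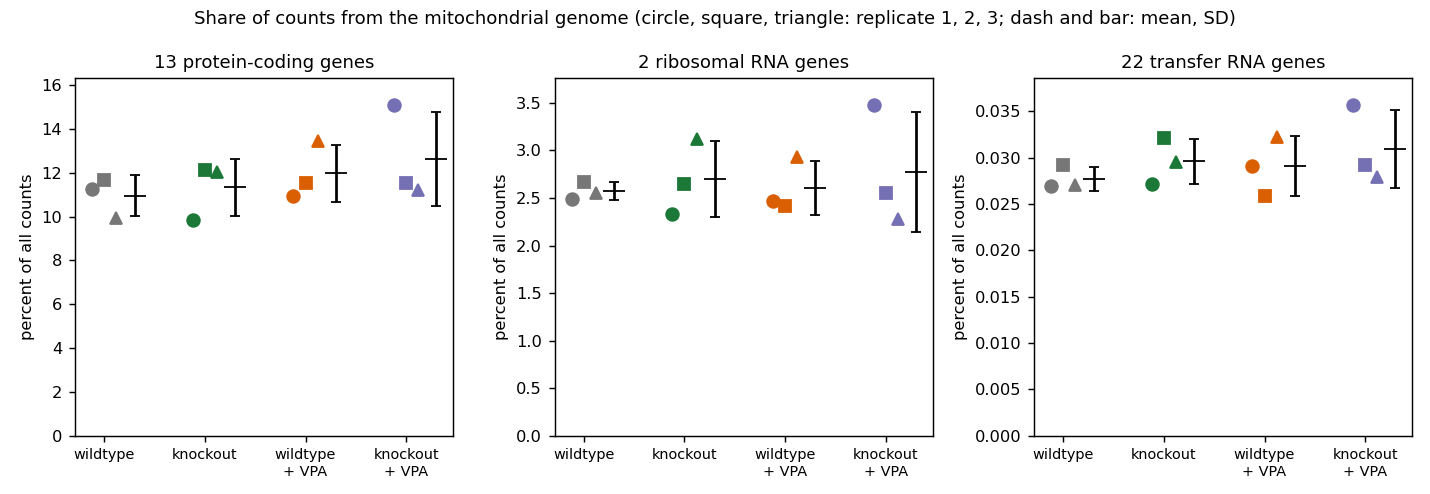
Share of each library's counts in percent (y axis, from 0) for the protein-coding, ribosomal RNA and transfer RNA members in the 4 groups (x axis, VPA for valproic acid), with a circle, square and triangle for replicates 1 to 3 and a dash and bar for the mean and SD. The groups overlap in each class, and exposed knockout replicate 1, at 18.62% for all members, is the highest point in all 3 panels.

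The 2 ribosomal RNAs form the small (mt-Rnr1, 12S) and large (mt-Rnr2, 16S) subunits of the mitochondrial ribosome. mt-Rnr1 measured 10980, 11770 and 10770 CPM in wildtype, 10270, 11550 and 13920 in knockout, 10810, 10770 and 13450 in exposed wildtype and 16590, 11300 and 9934 in exposed knockout. mt-Rnr2 measured 14020, 14950 and 14090 CPM in wildtype, 12540, 14480 and 17590 in knockout, 13240, 13110 and 16810 in exposed wildtype and 20810, 14170 and 12610 in exposed knockout. The lowest and the highest value of mt-Rnr1 both stood in exposed knockout, and all groups overlapped for both genes. Their ratio was steadier than either level: mt-Rnr2 had 1.22 to 1.31 counts per count of mt-Rnr1 over the 12 libraries. It was 1.27 to 1.31 in wildtype and 1.22 to 1.26 in knockout. With exposure it was 1.22 to 1.25 in wildtype and 1.25 to 1.27 in knockout. Wildtype thus lay above knockout and above exposed wildtype without overlap, a separation that has no test. There were 20.3 to 26.0 ribosomal RNA counts per 100 protein-coding counts, and the groups overlapped in this second measure.

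Among the messenger RNAs, 7 encode subunits of complex I (mt-Nd1 to mt-Nd6 and mt-Nd4l), which takes electrons from NADH, 1 encodes cytochrome b of complex III, 3 encode the core of complex IV, cytochrome c oxidase, and 2 encode the proton channel part of ATP synthase. Per kilobase of gene model, mt-Co1, the catalytic subunit of complex IV, was the most abundant, at a mean of 26150 CPM per kilobase. mt-Cytb followed at 17680 and mt-Nd1 at 17440 CPM per kilobase, and the order of this pair held in only 9 of 12 libraries. Then came mt-Rnr1 (12400), mt-Nd2 (11180), mt-Rnr2 (9398), mt-Nd4 (8174), mt-Nd6 (7158) and mt-Nd5 (5576), each above the next in 12 of 12 libraries.

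The remaining 6 messenger RNAs were far lower on the same scale. mt-Co2 and mt-Co3, which complete the core of complex IV with mt-Co1, stood at 2080 and 1209 CPM per kilobase. mt-Atp6, the proton channel subunit of ATP synthase, stood at 1436, the complex I subunits mt-Nd3 and mt-Nd4l at 506.6 and 162.1, and mt-Atp8, the short partner of mt-Atp6, at 22.56. mt-Co2 lay above mt-Atp6 in 9 of 12 libraries and mt-Atp6 above mt-Co3 in 6 of 12, so the order of these 3 is not resolved. Together the 6 genes held 2.65% to 3.44% of protein-coding counts. mt-Co2, mt-Atp8, mt-Atp6 and mt-Co3 are annotated close together and on the same strand as mt-Co1. mt-Atp8 overlaps mt-Atp6 and mt-Nd4l overlaps mt-Nd4, so the share of reads given to each depends on a counting rule that no source here gives.

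**Figure D2:**
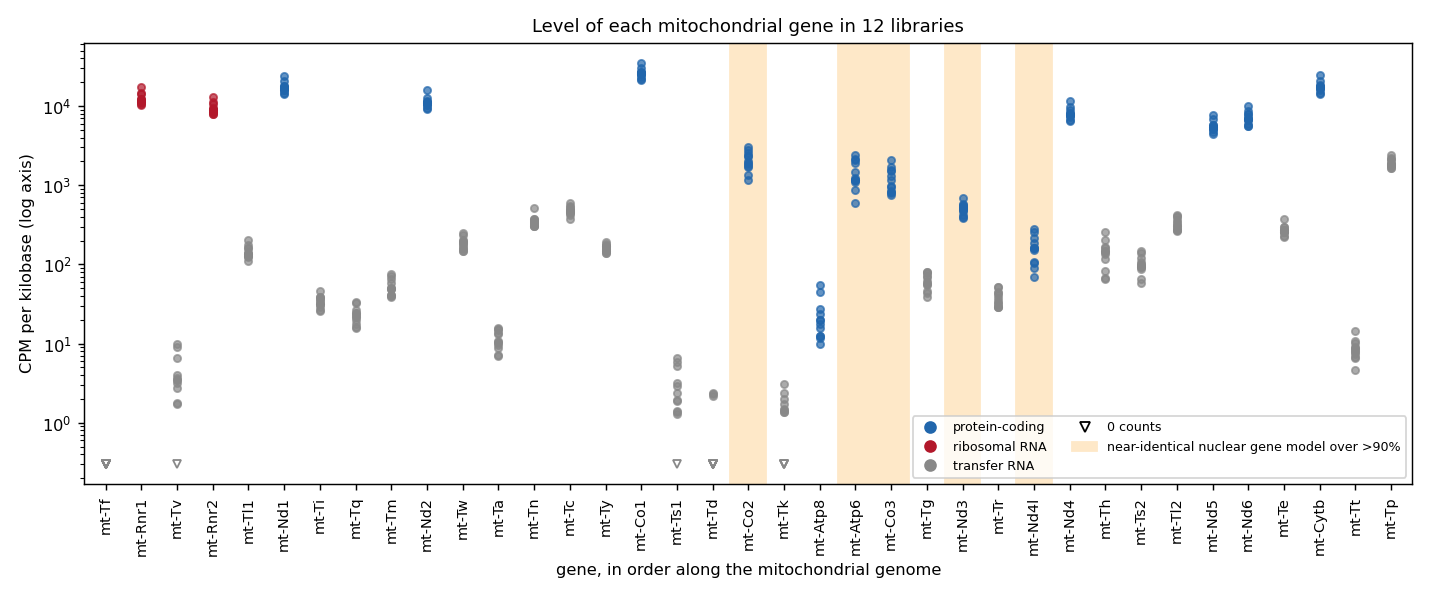
CPM per kilobase of gene model (log axis) of all 37 members along the mitochondrial genome, with a point per library, open triangles for 0 counts and shading where a near-identical nuclear gene model covers nearly the whole gene. The messenger RNA mt-Co1 (mean 26150) is highest, and the shaded genes and mt-Atp8 (means 2080 down to 22.56) lie below the other messenger RNAs, the lowest of which is mt-Nd5 (5576).

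Near-identical nuclear gene models exist for 5 of those 6 genes over almost their whole length. mt-Co2 matched Gm28661 over 681 of 684 bases, mt-Atp6 matched Gm10925 over 678 of 681, mt-Co3 matched Gm28437 over 783 of 784 and mt-Nd4l matched Gm10222 over 294 of 297, all with no mismatch. mt-Nd3 matched Gm28438 over 345 of 348 bases with the mismatch shown above. The copies had counts of their own: Gm28661 held 24.9% of the sum of mt-Co2 and itself on average, with 17.3% to 50.2% over libraries. The other 4 copies held averages of 15.6% (Gm28438 with mt-Nd3) to 31.1% (Gm10222 with mt-Nd4l). Apart from reads over the mismatch in mt-Nd3, reads from the aligned bases of these pairs cannot be told apart by sequence, and how the authors counted a read that fits both places is not given, so the levels of these 5 members are uncertain in either direction. Adding the copy back left each of them below mt-Nd5: the sum for mt-Co2 came to 2760 and for mt-Atp6 to 2000 CPM per kilobase. Such a sum holds only reads that were counted for the member or for its copy. It would miss reads left out because they fit both, so it cannot show the level of these genes.

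mt-Co1 and mt-Nd4 are matched only in part. Gm29216 covers 483 of the 1545 bases of mt-Co1 and held 0.838% of the sum of both, and Gm28439 covers the first 876 of the 1378 bases of mt-Nd4 and held 0.727%. At 97.61% identity, Gm13340 covers all 1545 bases of mt-Co1, and it had 325 to 1332 counts per library. Gene models of lower identity also matched mt-Nd2 (Gm13339, 96.67% over 510 bases), mt-Nd5 (Gm4076, 95.18% over 954) and mt-Co2 (Gm13341, 95.91% over 684). These copies were not summed with their members. mt-Atp8 had no matching gene model of at least 100 bases, and sequence outside gene models was not searched.

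The spread between libraries of a group followed the same division in part. The within-group SD of log2 CPM was 0.205 to 0.282 in the 7 upper messenger RNAs. It was 0.316 for mt-Co2, 0.546 for mt-Co3, 0.564 for mt-Atp6, 0.707 for mt-Nd4l and 0.712 for mt-Atp8, while mt-Nd3, at 0.202, was no more variable than the upper 7. Over the 1896 tested genes of at least 100 CPM the median of this SD was 0.089 and the 95th percentile 0.176, and all 13 protein-coding members exceeded that percentile. mt-Nd4l (mean 48.1 CPM) and mt-Atp8 are below 100 CPM, and over the 9976 genes of at least 10 CPM the percentile was 0.204, just above mt-Nd3. For mt-Nd4l the sum with its copy was steadier than the member alone (0.478 against 0.707), and for mt-Co2 it was not (0.326 against 0.316).

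**Figure D3:**
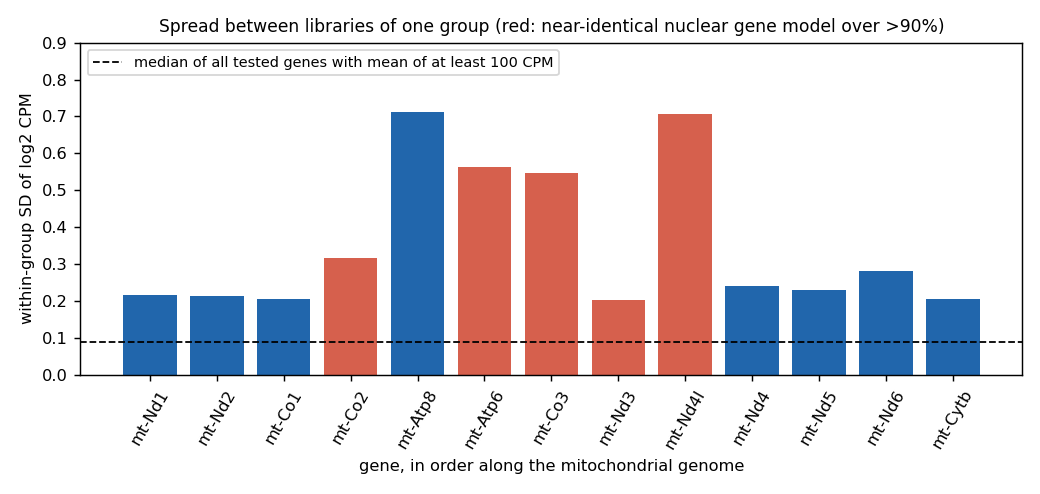
Within-group SD of log2 CPM (y axis) of the 13 protein-coding members in genome order, red where a nuclear gene model covers nearly the whole gene and blue otherwise, with a dashed line at the median of all tested genes of at least 100 CPM (0.089). All 13 bars stand above the line, mt-Atp8 (0.712, blue) and mt-Nd4l (0.707, red) are the highest, and mt-Nd3 (0.202, red) is the lowest. mt-Atp8 and mt-Nd4l have means below 100 CPM, so the line is not of genes at their level.

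The make-up of the upper messenger RNAs was narrow. mt-Co1 took 33.5% to 35.3% of protein-coding counts in all libraries. Its share was 35.3%, 35.2% and 35.0% in wildtype and 34.0%, 34.1% and 34.1% in exposed wildtype, without overlap, while the knockout groups spanned 33.6% to 34.6% and 33.5% to 35.1%. mt-Cytb counts came to 47.7% to 48.6% of mt-Co1 counts in wildtype, against 49.4% to 52.2% in knockout, 49.4% to 50.6% in exposed wildtype and 50.5% to 51.8% in exposed knockout. The 3 unexposed wildtype libraries were thus the lowest 3 of 12 for this ratio, which was looked at after the data were seen and has no test. mt-Nd1 counts came to 39.1% to 40.4% of mt-Co1 counts in wildtype, 41.6% to 42.3% in knockout and 41.3% to 42.3% in exposed wildtype. In exposed knockout they came to 39.5% to 42.7%, which overlapped wildtype. The mt-Nd1 ratio has no test either. The mt-Co1 share and both ratios all contain mt-Co1 counts, so they are not separate observations. mt-Nd6 is the only messenger RNA on the other strand. It took 2.78% to 3.41% of protein-coding counts, with overlapping groups. The strand setting of the counting is unknown, so reads of the opposite strand cannot be told apart in its share or its level.

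The transfer RNA rows were dominated by a few genes. mt-Tp (proline) held 44.0% of all transfer RNA counts, followed by mt-Tc (cysteine) with 10.8%, mt-Tn (asparagine) with 8.49%, mt-Tl2 (leucine) with 8% and mt-Te (glutamate) with 6.38%. All of these but mt-Tl2 are annotated on the minus strand, and the 8 minus-strand rows held 74.2% of transfer RNA counts against 25.8% for the 14 plus-strand rows. Minus-strand genes lie opposite the precursor that carries most messenger RNAs, and the strand setting of the counting is unknown, so reads of the opposite strands cannot be told apart. At the low end, mt-Tv had 0 to 17 counts per library, mt-Ts1 0 to 10, mt-Tk 0 to 5 and mt-Td 0 to 4. mt-Tf had 0 of 255850042 counts in all, which allows up to 0.0117 CPM (3 counts, counting error only). These 5 rows were the members not tested.

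The first comparison asks what prenatal valproic acid did in wildtype. In edgeR's quasi-likelihood test 0 of 32 members passed at an adjusted p of 0.05, where 161 of all tested genes did (0.895%, with 0.206% higher and 0.689% lower). DESeq2's Wald test called 1 member and limma-voom 0, and 3 members had an unadjusted p under 0.05 (14.1% of all genes had). The log2 differences of all 13 messenger RNAs were positive, with a median of 0.15, and the median over all 32 members was 0.10 against 0.01 over all genes. Without exposed wildtype replicate 3, which lacks Xist, 10 of 13 messenger RNAs were positive with a median of 0.05, and without wildtype replicate 3 it was 11 of 13 with 0.08. The groups did not overlap for 3 members, 2 higher (background 9.82%) and 1 lower (10.9%). Expressed as levels, mt-Co1 was 38280 ± 3910 CPM in wildtype and 40820 ± 5770 in exposed wildtype (SD, n = 3), a log2 difference of 0.09.

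The member nearest the threshold was mt-Th, the transfer RNA for histidine. It measured 4.42, 4.46 and 5.60 CPM in wildtype and 9.80, 7.73 and 13.6 in exposed wildtype. Every exposed library was above every unexposed one, though at only 81 to 304 counts per library over the whole series. The difference was 2.13-fold, a log2 of 1.09 ± 0.24 (SE), with an adjusted p of 0.0502 (edgeR), which misses the threshold. Over 11 other ways of fitting, the adjusted p ranged from 2.88e-10 to 0.0996 and was under 0.05 in 8. With one library left out at a time it was 0.0222 to 0.183, under 0.05 only without exposed wildtype replicate 2, and without exposed wildtype replicate 3, which lacks Xist, the log2 difference was 0.86 with an adjusted p of 0.0933. Scaled to protein-coding counts (counts of mt-Th per 1000000 of them), it stood at 38.2 to 57.9 in wildtype and 67.7 to 98.0 in exposed wildtype, so the separation was also present relative to the other mitochondrial transcripts.

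The neighbours of mt-Th did not share its difference evenly. mt-Ts2 (serine), the next gene, measured 3.46, 3.86 and 5.43 CPM in wildtype and 7.09, 5.44 and 8.15 in exposed wildtype, a log2 difference of 0.69 ± 0.20 (SE) and an edgeR adjusted p of 0.0944. The groups were separated only by 5.43 against 5.44. mt-Tl2 (leucine), the gene after it, had a log2 difference of -0.20 with an adjusted p of 0.631. mt-Co2, with the third smallest p, measured 1212, 929.5 and 797.4 CPM in wildtype and 1167, 1742 and 2105 in exposed wildtype, and its groups overlapped. Its log2 difference was 0.77 with an adjusted p of 0.214, and 0.49 with an adjusted p of 0.453 after its nuclear copy was added. mt-Ty (tyrosine), named after its values were seen, was the member whose exposed libraries were all lower (9.92 to 11.37 against 11.38 to 12.29 CPM, a gap in the last digit), with a log2 difference of -0.14 and an adjusted p of 0.664.

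The other members always described were closer to 0 or more variable. The log2 differences were 0.06 for mt-Rnr1, 0.20 for mt-Nd6, 0.48 for mt-Atp8 and 0.14 for mt-Tp, with adjusted p of 0.914, 0.754, 0.785 and 0.610 in edgeR. mt-Rnr2 was at 0.00 (adjusted p 0.996), and its sign turned to -0.01 with library totals alone. mt-Atp8 had 2.04 to 5.63 CPM in wildtype and 2.51 to 9.20 in exposed wildtype.

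Of the tissue marker lists reported, 5 had groups that did not overlap in this contrast. Nuclear-retained RNAs (6 of 6 tested) summed to 1870 to 2770 CPM in wildtype and 2810 to 3410 in exposed wildtype. Striatal markers (6 of 6) summed to 928 to 971 and 566 to 620, microglial markers (3 of 3) to 93.1 to 100 and 106 to 112, and red blood cell markers (5 of 5) to 162 to 241 and 100 to 143. Astrocyte markers (3 of 3) were separated narrowly, at 443 to 473 and 474 to 566. Oligodendrocyte markers (3 of 3), at 6520 to 8310 over all libraries, overlapped in this and every other pairwise comparison. No marker of these lists was at 0 in all libraries, and their part in the values of the members was not tested.

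**Figure D4:**
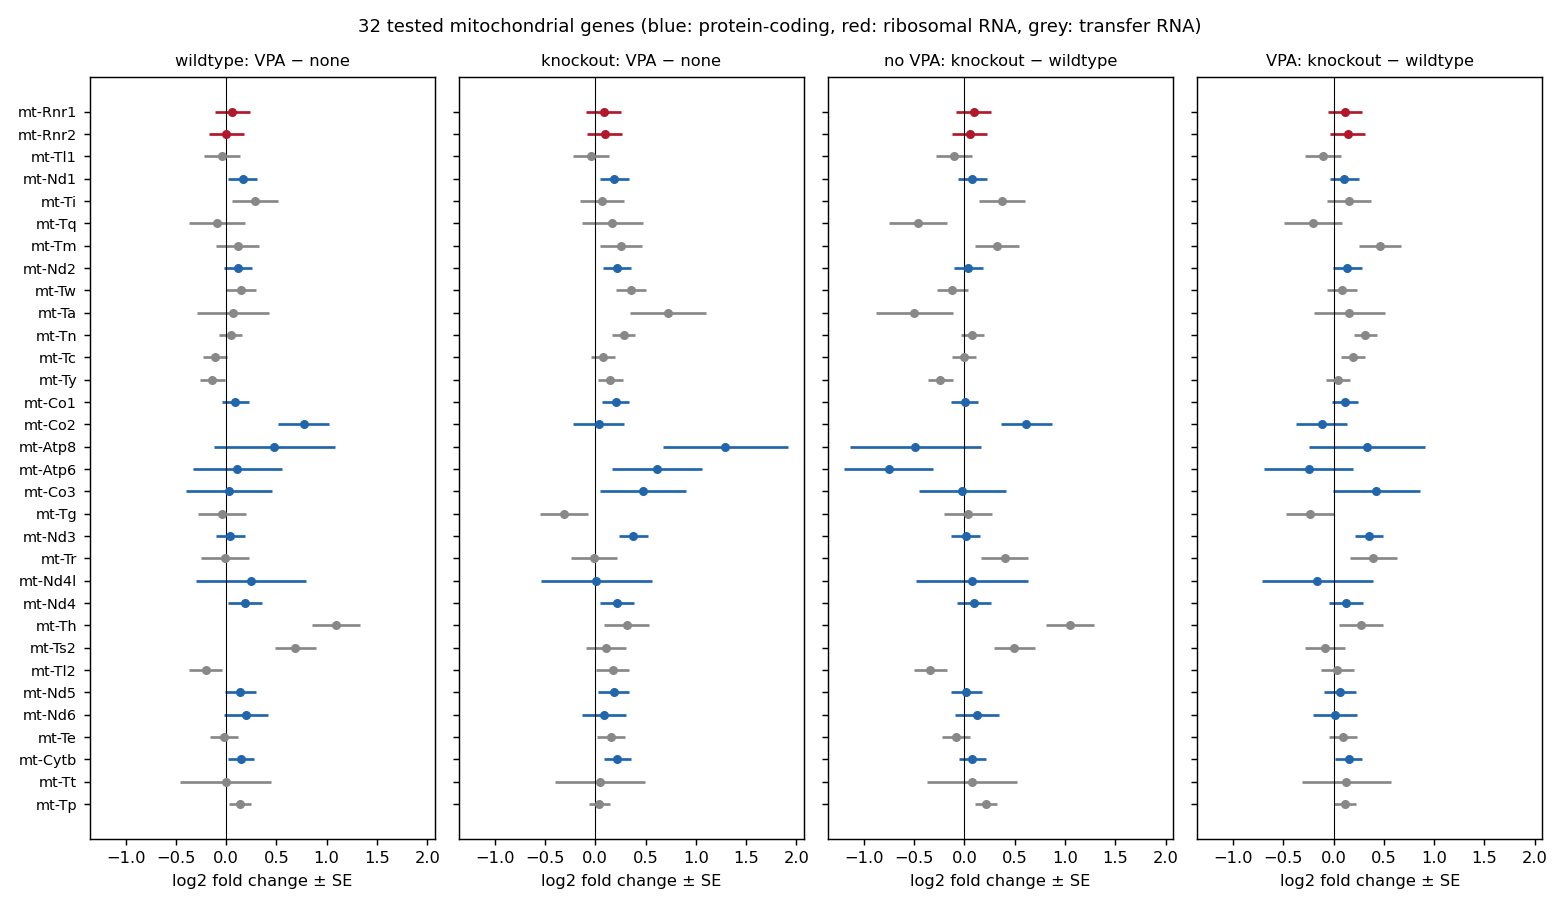
Log2 difference with its standard error (x axis) of each tested member in genome order, in the 4 pairwise comparisons (VPA for valproic acid), with blue for protein-coding, red for ribosomal RNA and grey for transfer RNA. mt-Th lies at 1.09 for valproic acid in wildtype and 1.05 for knockout without exposure, mt-Atp8 at 1.30 with a wide error for valproic acid in knockout, and no member passed the adjusted threshold in any panel.

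The second comparison asks what the deletion did without exposure, and it shares the wildtype libraries with the first. Of 32 members 0 passed in edgeR, against 7 of all genes (0.0389%, with 0.0278% higher and 0.0111% lower), with 3 at an unadjusted p under 0.05 (3.13% of all genes). DESeq2's Wald test called 1 member and limma-voom 0. The groups did not overlap for 4 members that were higher (background 3.58%) and 4 that were lower (3.81%). The median log2 difference was 0.05 over all members, and 10 of 13 messenger RNAs were positive.

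mt-Th again had the smallest p. Knockout libraries measured 9.84, 11.03 and 9.14 CPM against the 4.42, 4.46 and 5.60 of wildtype, with no overlap. The log2 difference was 1.05 ± 0.24 (SE), unadjusted p 0.000673 and adjusted p 0.999 in edgeR. Because the wildtype libraries are the same in both comparisons, their low values enter both differences. Over the other fits the adjusted p ran from 5.83e-09 to 1.0 and was under 0.05 in 3 of 11, while with one library left out it was 0.705 or more.

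mt-Ts2 measured 5.98, 6.26 and 5.73 CPM in knockout, above all 3 wildtype values, with a log2 difference of 0.50 and an adjusted p of 0.999. mt-Co2 measured 1320, 1903 and 1281 CPM, also above all wildtype values, with a log2 difference of 0.62 (adjusted p 0.999) that became 0.38 with its copy added. mt-Tp was the fourth member that was higher without overlap, at 121.1, 141.5 and 141.3 CPM against 117.3, 120.9 and 109.9, a log2 difference of 0.21. The 4 lower members, named after their values were seen, were mt-Atp6 (log2 difference -0.76), mt-Ta for alanine (-0.50), mt-Tl2 (-0.34) and mt-Ty (-0.24), each with an adjusted p of 0.999. mt-Co1 and mt-Rnr2 differed by 0.00 and 0.05, mt-Rnr1 by 0.09, mt-Nd6 by 0.12 and mt-Atp8 by -0.49 (-0.04 without wildtype replicate 1). The striated muscle markers were the list without overlap here, at 21.3 to 21.7 CPM in wildtype and 17.1 to 20.7 in knockout (4 of 5 tested, none at 0 in all libraries), and their part was not tested.

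**Figure D5:**
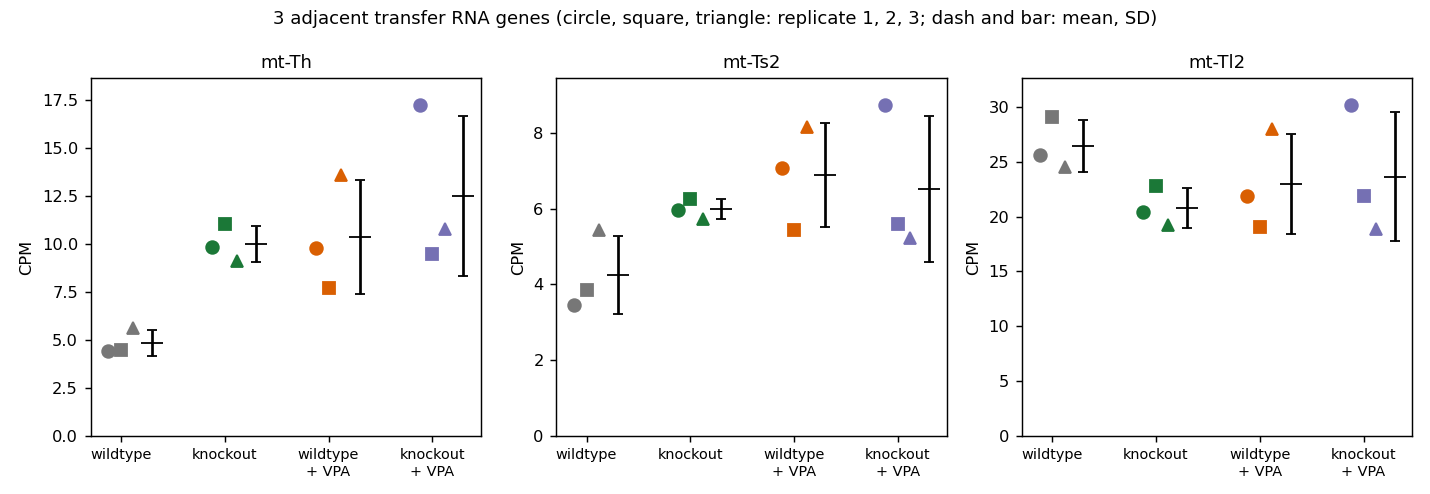
CPM (y axis, from 0) of the adjacent transfer RNA genes mt-Th, mt-Ts2 and mt-Tl2 in the 4 groups (x axis, VPA for valproic acid), with a circle, square and triangle for replicates 1 to 3 and a dash and bar for the mean and SD. For mt-Th the 3 wildtype libraries (4.42 to 5.60) lie below all 9 others (7.73 to 17.3), for mt-Ts2 wildtype replicate 3 (5.43) lies among the lower of the others, and for mt-Tl2 wildtype has the highest mean (26.4).

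Within the knockout, exposed libraries were compared with unexposed ones. Of 32 members 0 passed in edgeR (10 of all genes passed, 0.0556%, with 0.0167% higher and 0.0389% lower), 0 in DESeq2 and 0 in limma-voom, and 3 had an unadjusted p under 0.05 (14.9% of all genes had). All 13 messenger RNAs had a positive log2 difference, with a median of 0.22. That count rested on exposed knockout replicate 1: without it 6 of 13 were positive and the median was 0.00, and with library totals alone 11 of 13 were positive. The groups did not overlap for 3 higher members (background 9.87%) and 0 lower (10.3%). One of the 3 was mt-Nd3, at 137.2, 181.9 and 171.7 CPM in knockout and 240.6, 198.2 and 199.7 in exposed knockout. Its log2 difference was 0.38 with an adjusted p of 0.243.

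mt-Tw (tryptophan) measured 10.02, 11.97 and 10.39 CPM in knockout and 15.6, 13.6 and 12.3 in exposed knockout, a log2 difference of 0.35 with an adjusted p of 0.264. mt-Tn (asparagine), whose groups overlapped, differed by 0.29 with an adjusted p of 0.239, and by 0.10 without exposed knockout replicate 1. mt-Atp8 was the third member without overlap, at 2.40, 2.57 and 3.17 CPM against 11.3, 4.02 and 4.79, with a log2 difference of 1.30 ± 0.63 (SE) and an adjusted p of 0.383. Without exposed knockout replicate 1 that difference was 0.71. The differences were 0.20 for mt-Co1, 0.08 for mt-Rnr1, 0.09 for mt-Rnr2, 0.08 for mt-Nd6 and 0.04 for mt-Tp. Without the same library mt-Co1 stood at 0.02, mt-Rnr1 at -0.17, mt-Rnr2 at -0.16, mt-Nd6 at -0.19 and mt-Tp at -0.09. mt-Th differed by 0.31 here. Choroid plexus markers (9 of 9 tested, none at 0 in all libraries) summed to 1820 to 1970 CPM in knockout and 2610 to 3120 in exposed knockout. Meningeal markers (5 of 5, none at 0 in all libraries) summed to 66 to 81.5 and 83 to 101, and the part of neither list was tested.

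Among exposed mice, knockout was compared with wildtype. Of 32 members 0 passed in edgeR (9 of all genes, 0.05%, with 0.0389% higher and 0.0111% lower), 0 in DESeq2 and 0 in limma-voom, with 3 at an unadjusted p under 0.05 (7.44% of all genes). Of the 13 messenger RNAs 10 were positive with a median of 0.11, and without exposed knockout replicate 1 only 2 were, with a median of -0.10. Without exposed wildtype replicate 3 it was 12 of 13 with a median of 0.22, and without both libraries lacking Xist 12 of 13 with 0.33. Of the 32, mt-Nd3 alone was separated without overlap, higher in knockout (background 6.96%, and 6.24% for lower), with a log2 difference of 0.35 and an adjusted p of 0.598. mt-Tn differed by 0.32 (adjusted p 0.514), or 0.13 without exposed knockout replicate 1, and mt-Tm, the methionine transfer RNA, by 0.46 (adjusted p 0.633). mt-Co1 differed by 0.11, mt-Rnr1 by 0.11, mt-Rnr2 by 0.14, mt-Nd6 by 0.01, mt-Atp8 by 0.33, mt-Tp by 0.12 and mt-Th by 0.27. Without both libraries lacking Xist the differences were 0.31 for mt-Co1, 0.36 for mt-Rnr1, 0.40 for mt-Rnr2, 0.27 for mt-Nd6 and 0.29 for mt-Tp, with edgeR adjusted p of 0.251 or more. The red blood cell markers (5 of 5) did not overlap, at 100 to 143 CPM in exposed wildtype and 155 to 206 in exposed knockout, and their part was not tested.

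The interaction asks whether the valproic acid difference itself depended on genotype. No gene of the 17995 passed in edgeR (0%), so 0 of 32 members did, with 1 at an unadjusted p under 0.05 (5.98% of all genes), and DESeq2 and limma-voom called 0 members. That member was mt-Th, with an interaction of -0.78 ± 0.33 (SE) on the log2 scale and an adjusted p of 0.833. mt-Ts2 was at -0.58 (adjusted p 0.839) and mt-Co2 at -0.74 (adjusted p 0.843). Without both libraries lacking Xist these 3 values were -0.46, -0.32 and -0.48 (mt-Th, mt-Ts2, mt-Co2), with mt-Rnr1 at 0.27, mt-Rnr2 at 0.35 and mt-Co1 at 0.30. mt-Co1 was at 0.11, mt-Rnr1 at 0.02, mt-Rnr2 at 0.09, mt-Nd6 at -0.11, mt-Atp8 at 0.81 (0.23 without exposed knockout replicate 1) and mt-Tp at -0.10. A dependence of the mt-Th difference on genotype was therefore not shown, although its size was 1.09 in wildtype and 0.31 in knockout.

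Across the 12 libraries the members varied together to different degrees. The log2 CPM of mt-Rnr1 and mt-Rnr2 had a Pearson r of 0.991 and a Spearman rho of 0.972, with permutation p of 2e-05 each, the smallest the 100000 resamples can give (Benjamini-Hochberg adjusted over 4 pairs, 4e-05 and 8e-05). mt-Co1 and mt-Nd4 had r = 0.969 (permutation p 2e-05, adjusted 4e-05) and rho = 0.797 (0.00268, adjusted 0.00268). For mt-Co1 and mt-Nd6, which lie on opposite strands, r was 0.929 (permutation p 6e-05, adjusted 8e-05) and rho 0.860 (0.0006, adjusted 0.0012). With the strand setting unknown, the mt-Nd6 row may hold reads of the strand of mt-Co1, so this pair may not compare separate strands. mt-Rnr2 with mt-Co1 had the lowest Pearson r of the 4 pairs, 0.843 (permutation p 0.00146, adjusted 0.00146), and a rho of 0.846 (0.00124, adjusted 0.00165), above the 0.797 of mt-Co1 with mt-Nd4. Without the 2 libraries farthest from the median, r was 0.966, 0.890, 0.821 and 0.762 in the order given. All of these values share the depth and scaling of a library, and the ribosomal RNAs also share its depletion step. The part of depletion in these correlations was not tested. With deviations from group means in place of levels, r was 0.997, 0.975, 0.972 and 0.877.

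The nuclear genes whose log2 CPM followed mt-Co1 most closely over the 12 libraries, among 9954 genes of at least 10 CPM, were Bcl2l2 (r = 0.967), Wdr13 (0.935), 4930402H24Rik (0.923), Ttyh1 (0.916) and Rims1 (0.912). These are a description of 12 points that share library depth, with no p.

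The nuclear partners of the mitochondrial genome were followed through 12 lists with 226 genes, of which 223 were tested. With exposure in wildtype 5 of the 223 fell and 0 rose, against 0.689% and 0.206% of all genes. Tefm, the elongation factor of mitochondrial transcription, fell from 8.11 ± 0.35 to 5.20 ± 0.84 CPM (SD, n = 3), a log2 change of -0.64 with an edgeR adjusted p of 0.0349. The complex I subunits Ndufs4, Ndufv2 and Ndufb5 had changes of -0.36, -0.31 and -0.26 with adjusted p of 0.0123, 0.0327 and 0.0471. Atp5f1, a subunit of the ATP synthase stalk, fell from 394 ± 9.9 to 307 ± 20 CPM, a change of -0.36 with an adjusted p of 0.016. The count rested on single libraries: it was 0 without wildtype replicate 2 or 3, 1 without exposed wildtype replicate 3, 2 without replicate 1 or 2 of that group, 7 without wildtype replicate 1, and 0 without both libraries that lack Xist.

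Where mitochondrial messenger RNAs had positive differences in exposed wildtype, most nuclear partners had negative ones. The positive side was small and leaned on exposed wildtype replicate 3, without which 10 of 13 messenger RNAs were positive with a median of 0.05. Over all 17995 genes, 8734 were negative. Of the large mitochondrial ribosome subunit, 45 of 46 members were negative with a median of -0.17, and of the small subunit 26 of 28 with -0.18. The medians were -0.12 for complex I (31 of 36 negative), -0.15 for complex II (3 of 4), -0.11 for complex III (8 of 9), -0.10 for complex IV (9 of 11) and -0.14 for ATP synthase (14 of 15). The 12 genes of mitochondrial transcription had a median of -0.21 and the 11 mass markers -0.13, all 11 negative. RNA processing genes (-0.01), DNA maintenance genes (0.00) and biogenesis regulators (-0.03) were near the median of all genes, 0.01. Over 17 other fits, libraries left out included, the negative count of the large ribosome subunit was 41 to 46 and of the small 26, with complex I at 28 to 33. None of these counts has a test of its own.

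In the other comparisons 0 of 223 passed in either direction in edgeR. For exposure in knockout the ribosomal lists were again mostly negative (37 of 46 and 25 of 28, medians -0.10 and -0.10) and so were the mass markers (11 of 11, -0.10), while complex I, III, IV and ATP synthase stood between -0.04 and -0.01. With library totals alone the latter were mostly negative too, at 32 of 36 for complex I (median -0.08), 9 of 9 for complex III (-0.05), 7 of 11 for complex IV (-0.08) and 14 of 15 for ATP synthase (-0.08). For knockout among exposed mice the lists of respiratory complexes and ATP synthase were mostly positive. The counts were 33 of 36 for complex I (median 0.15), 11 of 11 for complex IV (0.19) and 14 of 15 for ATP synthase (0.18). The ribosomal lists had 35 of 46 and 23 of 28 positive. Less one-sided were transcription (7 of 12), DNA maintenance (10 of 15), RNA processing (11 of 26) and biogenesis regulators (4 of 10). Mass markers were positive in 7 of 11, in 3 of 11 with library totals alone and in 2 of 11 without both libraries lacking Xist. Over all 17995 genes, 9211 were positive. For knockout without exposure the 12 medians lay between -0.02 and 0.07, and for the interaction between -0.02 and 0.12.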

How the data were processed

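RNA of 12 mouse brain samples, grouped by their labels as 4 sets of 3, was depleted of ribosomal RNA and made into libraries with an NEBNext Ultra kit, per the labels' protocols. The submitters' processing notes name HISAT2 and the build GRCm39, while no source here gives the counting program, annotation release, strand setting or handling of reads with several matches. The authors deposited raw counts per gene, without normalisation.

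Genes were kept with filterByExpr in edgeR 4.0.16 (R 4.3.3, limma 3.58.1), which left 17995. TMM scaling factors were 0.93 to 1.025. The robust quasi-likelihood fit gave each group its own mean and used all 12 libraries, with a common BCV (biological coefficient of variation) of 0.09. Tests were two-sided, and p-values were adjusted by Benjamini-Hochberg across the 17995 genes, with 0.05 as the threshold. CPM used library totals over all rows times TMM factors, and log2 CPM had a prior count of 2. DESeq2 1.42.0 (Wald test, no independent filtering) and limma-voom were alternatives. Correlations used 100000 resamples in scipy 1.17.1 (Python 3.11.15, numpy 2.4.6, pandas 2.3.3), and figures used matplotlib 3.10.9. The fit was also run on simulated counts whose spread followed the trend of spread with level, and its outcome is not used here.

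Gene order, strand, lengths and sequences came from GENCODE M21 on GRCm38, so no positions are printed. Nuclear copies were gene models with at least 95% identity over at least 100 bases in BLAST+ 2.17.0, and those of at least 99% were summed with their member in an alternative chosen after the data were seen. The upper limit for mt-Tf covers counting error only. SDs are between the libraries of a group, and SEs come from the quasi-likelihood fit, which includes the spread between libraries.

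All 37 members are accounted for. Each comparison names the members past the test or, where there are fewer than 3, up to the 3 smallest p, and always mt-Rnr1, mt-Rnr2, mt-Co1, mt-Nd6, mt-Atp8 and mt-Tp. Of the 12 nuclear lists, members past the test are named, at most 4 per list, and likeness to mt-Co1 names 5 genes. The members, lists and tests were chosen with earlier results of these data known. Alternatives were other scalings, no filter on low counts, other tests, fewer libraries and a replicate block. The labels do not say what a replicate number stands for. One list of tissue markers is not reported here.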

Additional observations from a re-analysis of the deposited data

How the results depend on the processing

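Members past the test for valproic acid in wildtype numbered 1 in place of 0 (mt-Th) with DESeq2 size factors, library totals alone, scaling by rows outside the mitochondrial genome, members summed with their nuclear copies (chosen after the data were seen), DESeq2's Wald test or only the compared libraries, and 2 with no filter on low counts (mt-Th and mt-Ts2). Without one library it was 0 to 1. No filter gave 1 member in each of the other pairwise comparisons, mt-Nd3 in both that involve exposed knockout and mt-Th for knockout without exposure, and the Wald test and the fit of the compared libraries also called mt-Th in the last. The interaction gave 0 in all alternatives. Of the nuclear genes, 5 for valproic acid in wildtype became 2 with library totals alone, 16 with no filter or the Wald test, 0 without both libraries lacking Xist, and 0 to 7 without one library. For valproic acid in knockout they became 2 with no filter and 1 with the Wald test, and for knockout among exposed mice 1 with no filter. With the 2 ribosomal RNA rows left out of both members and total, the other members held 11.3%, 11.7%, 12.3% and 13% of counts in wildtype, knockout, exposed wildtype and exposed knockout. The causes of these differences were not tested.

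The replicate number as a block gave 1 member (mt-Th, adjusted p 0.0488) and 3 nuclear genes for valproic acid in wildtype, and mt-Rnr2 at -0.002. Same-numbered samples showed little likeness: of 18 same-numbered pairs, 1 had a correlation of deviations over 0.1 (range -0.062 to 0.115). Pairs with different numbers are not given beside them, so what the numbers stand for cannot be told from these values.

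No member was called in the main fit, so every sign that turned was of a member not called. For valproic acid in wildtype, mt-Rnr2 was -0.009 with library totals alone, -0.001 with scaling outside the mitochondrial genome and -0.005 with limma-voom. Without both libraries lacking Xist, mt-Rnr2 was -0.122, mt-Rnr1 -0.049 and mt-Co1 -0.025 there, and in the interaction mt-Nd6 was 0.143 and mt-Tp 0.075. With library totals alone mt-Tp was -0.005 for valproic acid in knockout, mt-Nd6 -0.028 for knockout among exposed mice and mt-Rnr1 -0.021 in the interaction. mt-Nd6 in the exposed comparison was -0.002 with no filter and -0.018 with limma-voom. Without one library at a time, log2 differences ranged as follows. For mt-Atp8 they were 0.706 to 1.552 for valproic acid in knockout, -0.793 to -0.040 for knockout without exposure and 0.226 to 1.518 in the interaction. For valproic acid in wildtype they were -0.222 to 0.927 for mt-Atp8 (lowest without exposed wildtype replicate 2, highest without wildtype replicate 1), -0.025 to 0.171 for mt-Co1, -0.049 to 0.118 for mt-Rnr1 and -0.122 to 0.066 for mt-Rnr2. In knockout they were -0.186 to 0.230 for mt-Nd6, -0.171 to 0.227 for mt-Rnr1, -0.156 to 0.235 for mt-Rnr2 and -0.094 to 0.110 for mt-Tp. For knockout without exposure they were -0.078 to 0.095 for mt-Co1, -0.033 to 0.188 for mt-Rnr1 and -0.086 to 0.160 for mt-Rnr2. Among exposed mice they were -0.260 to 1.033 for mt-Atp8, -0.068 to 0.225 for mt-Co1, -0.259 to 0.156 for mt-Nd6, -0.142 to 0.256 for mt-Rnr1, -0.107 to 0.282 for mt-Rnr2 and -0.020 to 0.222 for mt-Tp. In the interaction they were -0.071 to 0.219 for mt-Co1, -0.381 to 0.034 for mt-Nd6, -0.233 to 0.164 for mt-Rnr1, -0.158 to 0.231 for mt-Rnr2 and -0.234 to 0.005 for mt-Tp. Low counts limit the transfer RNA rows most, with 5 too low to test and mt-Th at 81 to 304 counts. The reason for these low counts was not tested.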
